A study of Mus musculus with 6 samples.

Results

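The transcripts described here belong to 10 genes of the p53 pathway: Trp53, Mdm2, Cdkn1a, Ccng1, Gadd45a, Plk2, Bax, Phlda3, Sesn1 and Zmat3. They were taken by gene symbol from tables of 24346 symbols, and all 10 were found. The 6 libraries held hippocampal RNA of mice aged 12 months on a C57BL/6 background, 3 from TonEBP+/- mice (1 disrupted allele of Nfat5, the gene of the tonicity-responsive enhancer binding protein) and 3 from wild-type littermates (TonEBP+/+). No agent was given in either genotype, as far as the labels say. Which part of Nfat5 was disrupted, the sex of the mice, and whether each library is 1 animal are not stated, so p-values measure the spread between these libraries. The deposited values were on a log2(value + 1) scale, and the abundance behind them had the properties of FPKM, a count of fragments relative to transcript length in kilobases and to library depth. Levels are given below in FPKM and differences on the log2(FPKM + 1) scale, which understates changes of genes with low levels.

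The p53 protein is a transcription factor that is kept low by the ubiquitin ligase MDM2 and accumulates after DNA damage and other stress. It then activates genes that halt the cell cycle, promote repair or trigger apoptosis, and Mdm2 itself, which closes a feedback loop. Lasting p21 activity, encoded by Cdkn1a, is a feature of senescent cells, which accumulate with age in several tissues. Most neurons no longer divide, and in brain several of these genes have further roles, such as that of Plk2 in adapting synapses to activity. TonEBP is best known for raising osmoprotective genes under hypertonic stress, a condition that also induces GADD45 proteins in kidney cells.

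The recognition sequence of p53 is made of half-sites of the consensus called the p53 half-site. The promoter windows of RefSeq (GRCm38.p6, from 250 bases before a start site to 50 after it) were searched for it. Windows were available for 9 genes, with 11 start sites in all. Zmat3 was not among them. A half-site lay in 7 of the 11 windows, against 8.36% of all 32851 windows. The genes were chosen as p53 targets, and the count is a description without a test. The upstream start site of Cdkn1a and the start site of Ccng1 are shown because these genes are standard readouts of p53. Capitals mark half-sites and, in Cdkn1a, also the spaced pair CATGNNNNNNCATG, a pattern found in 0.712% of all windows. This pair was picked after the sequence had been seen, and both patterns read the same on either strand, so that 1 search covers both. The 250 bases before the start site are at chr17:29090729-29090978 (plus strand) for Cdkn1a and at chr11:40755287-40755536 (minus strand) for Ccng1.
Cdkn1a: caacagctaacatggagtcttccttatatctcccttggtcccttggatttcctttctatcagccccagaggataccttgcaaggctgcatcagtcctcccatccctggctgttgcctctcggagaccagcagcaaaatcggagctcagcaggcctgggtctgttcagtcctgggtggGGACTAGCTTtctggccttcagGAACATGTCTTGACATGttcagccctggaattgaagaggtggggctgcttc
Ccng1: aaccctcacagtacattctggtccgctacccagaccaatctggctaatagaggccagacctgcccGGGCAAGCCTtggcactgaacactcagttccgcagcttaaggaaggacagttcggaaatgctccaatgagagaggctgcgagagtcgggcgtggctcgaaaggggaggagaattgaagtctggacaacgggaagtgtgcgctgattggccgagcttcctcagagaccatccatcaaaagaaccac

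In the other windows with a half-site the matched bases were the following, read along the strand of the gene, with their place counted back from the start site. These 5 half-sites overlapped with no other motif searched. The promoter of Trp53 itself also held TGGAAA (on its opposite strand), the core of the element that TonEBP binds, which was present in 21.4% of all windows, both strands searched, and in no other window of the 10 genes. These matches show letters in a window and not binding.
Trp53 (-75 to -66): GGACTTGCCC
Mdm2 (-186 to -177): GAACTTGCCT
Gadd45a (-40 to -31): GGGCTAGCCC
Bax (-201 to -192): AGGCAAGCTT
Sesn1, downstream start site (-173 to -164): AAGCTTGTTT

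Libraries corresponded to about 8040000 to 12700000 fragments in TonEBP+/- and 8730000 to 10700000 in wild type, estimated from the steps between low values. Nfat5, the disrupted gene, was at 8.25, 9.31 and 8.42 FPKM in TonEBP+/- libraries and at 10.5, 8.39 and 9.72 FPKM in wild type. The ranges overlapped, and a whole-gene value can include transcripts of a disrupted allele, so it did not check the labels. Hippocampal markers were present: all 9 neuronal and all 6 dentate granule cell markers were above the filter on low values. Markers of adjoining tissue varied between libraries. The 12 thalamus and habenula markers summed to 250, 146 and 139 FPKM in TonEBP+/- 1 to 3, against 227 to 247 FPKM in wild type. The 7 choroid plexus markers summed to 96.8 to 3445 FPKM in TonEBP+/- libraries and to 282 to 2884 FPKM in wild type. No marker of either list was at 0 in all libraries. In bulk tissue, fewer cells of a type and less RNA per cell cannot be told apart.

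The comparison asked whether disruption of 1 Nfat5 allele was accompanied by a different level of the p53 program in the aged hippocampus. None of the 10 genes differed beyond the spread between libraries. All 10 passed the filter (at least 1 FPKM in 3 or more libraries), and 0 of 10 passed an adjusted p of 0.05 in limma, where 0% of the 13122 genes tested did. At an unadjusted p under 0.05 the count was 0 of 10 as well, against 3.69% of all genes tested. The 2 genotypes overlapped in all 10 genes, whereas they lay apart in 8.52% of all genes tested (4.13% with all TonEBP+/- libraries above wild type and 4.39% with all below). Ratios of TonEBP+/- to wild-type means ran from 0.904 (Phlda3) to 1.17 (Gadd45a). TonEBP+/- means were above wild type in 7 genes and below in 3, with a median log2 difference of 0.10 over the 10, beside a median of about 0 (-5e-06) and 50% of differences above 0 over all genes tested.

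**Figure D1:**
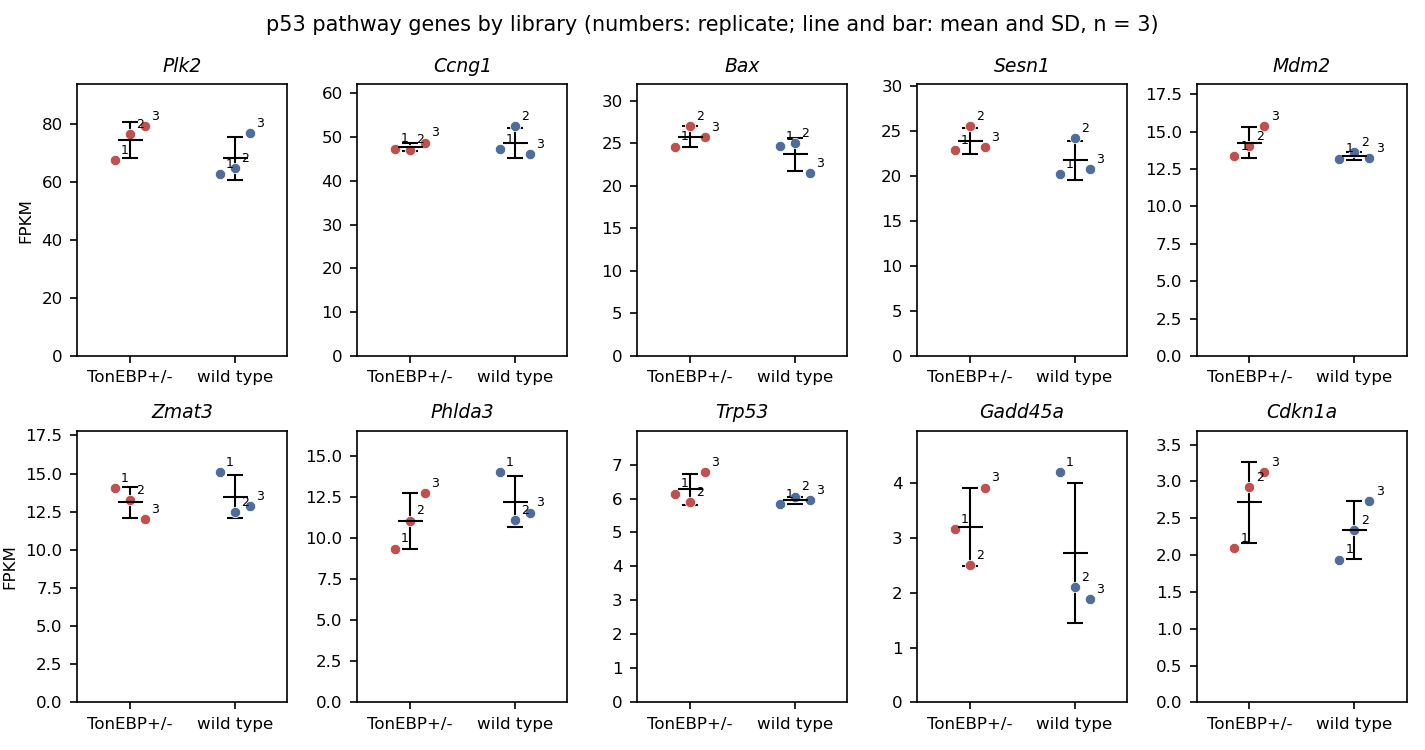
Abundance in FPKM (linear axes from 0) of the 10 genes, ordered by level, in 3 TonEBP+/- libraries (left, red) and 3 wild-type libraries (right, blue), with replicate numbers beside the points and the mean ± SD as black lines. The genotypes overlap in every panel, and the widest relative spread is that of Gadd45a, from 1.89 to 4.20 FPKM.

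Levels spanned more than an order of magnitude. Over all 6 libraries Plk2 averaged 71.3 ± 7.08 FPKM and Ccng1 48.2 ± 2.30 FPKM (SD, n = 6), and their ranges did not overlap. Next came Bax (24.7 ± 1.84 FPKM) and Sesn1 (22.8 ± 2.03 FPKM), whose ranges overlapped although Bax was higher than Sesn1 in each of the 6 libraries. Mdm2 (13.8 ± 0.827 FPKM), Zmat3 (13.3 ± 1.11 FPKM) and Phlda3 (11.6 ± 1.59 FPKM) formed a middle group in which each overlapped with the next. Trp53, at 6.11 ± 0.341 FPKM, stood apart from Phlda3 above and Gadd45a below. Gadd45a (2.97 ± 0.959 FPKM) and Cdkn1a (2.53 ± 0.474 FPKM) were lowest and overlapped, with Gadd45a the higher in 3 of 6 libraries (SD, n = 6 for all).

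The regulator and its inhibitor came first. Trp53 (chromosome 11, 69580348 to 69591873, GRCm38) encodes p53 itself. It was at 6.14, 5.89 and 6.77 FPKM in TonEBP+/- libraries and at 5.84, 6.05 and 5.95 FPKM in wild type. The wild-type values were close together and lay within the TonEBP+/- range except for the lowest, and TonEBP+/- 3 was highest. The log2 difference was 0.06 (SE 0.0870, 95% interval -0.13 to 0.26, limma adjusted p = 1.00; two-sided exact permutation p = 0.3), and it was 0.0142 without TonEBP+/- 3. Mdm2 (chromosome 10, 117688875 to 117710758), the ligase that marks p53 for degradation, was at 13.4, 14.0 and 15.4 FPKM in TonEBP+/- libraries and at 13.2, 13.7 and 13.3 FPKM in wild type. Each TonEBP+/- library was above the wild-type mean, and TonEBP+/- 1 was below wild type 2. The difference was 0.09 (SE 0.0765, 95% interval -0.09 to 0.26, limma adjusted p = 1.00; exact permutation p = 0.2, where 0.1 is the smallest that 3 against 3 allow). It was 0.0338 without TonEBP+/- 3, 0.0113 with a covariate made of the mean thalamus marker level and 0.0024 with TonEBP+/- 2 and 3, the libraries low in these markers, left out. In both genes the highest library was TonEBP+/- 3 and the lowest wild type 1.

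Genes of cell cycle arrest and stress kinase signalling followed. Cdkn1a (chromosome 17, 29090979 to 29100722) encodes p21, an inhibitor of cyclin-dependent kinases. Its level was 2.09, 2.93 and 3.12 FPKM in TonEBP+/- libraries and 1.94, 2.34 and 2.73 FPKM in wild type. TonEBP+/- 2 and 3 were above all wild-type libraries and TonEBP+/- 1 was below 2 of them. The difference of 0.15 (SE 0.144, 95% interval -0.17 to 0.47, limma adjusted p = 1.00; exact permutation p = 0.4) rested on an estimated 35.0 to 82.5 fragments per library, for which counting error alone is 11.0% to 16.9%. The SD between libraries was 20.1% of the mean in TonEBP+/- and 17.0% in wild type. TonEBP+/- 2 and 3 were also the libraries low in thalamus markers. With the mean of these markers as a covariate the difference was -0.06 (SE 0.158), and with both libraries left out it was -0.10. No wild-type library was low in these markers, so their level and genotype cannot be told apart here.

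Gadd45a (chromosome 6, 67035096 to 67037407), which encodes a growth arrest and DNA damage sensor, varied most. It was at 3.17, 2.50 and 3.92 FPKM in TonEBP+/- libraries and at 4.20, 2.11 and 1.89 FPKM in wild type, so that wild type 1 held the highest value and wild type 3 the lowest. Its SD was 22.2% of the mean in TonEBP+/- and 46.7% in wild type, against a counting error of 12.8% to 21.2% for an estimated 22.2 to 60.9 fragments. The difference was 0.21 (SE 0.230, 95% interval -0.32 to 0.74, limma adjusted p = 1.00; exact permutation p = 0.6), and it was 0.47 without wild type 1 and 0.0488 without wild type 3. Ccng1 (chromosome 11, 40748552 to 40755309) encodes cyclin G1, which brings a phosphatase to MDM2. It was at 47.3, 47.1 and 48.7 FPKM in TonEBP+/- libraries and at 47.3, 52.5 and 46.0 FPKM in wild type. All TonEBP+/- values fell within the wild-type range (difference -0.02, SE 0.0703, 95% interval -0.18 to 0.13, limma adjusted p = 1.00; exact permutation p = 0.9), and without wild type 2 the difference was 0.03.

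Plk2 (chromosome 13, 110395044 to 110400844) encodes a polo-like kinase that neurons also induce with activity. Its values were 67.7, 76.5 and 79.4 FPKM in TonEBP+/- libraries and 62.7, 64.9 and 76.8 FPKM in wild type. As in Cdkn1a, TonEBP+/- 3 was highest and wild type 1 lowest, and wild type 3 lay among the TonEBP+/- libraries. The difference was 0.13 (SE 0.0933, 95% interval -0.08 to 0.34, limma adjusted p = 1.00; exact permutation p = 0.3), and about 0 (-0.0044) with TonEBP+/- 2 and 3 left out.

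Among genes of cell death and survival, Bax (chromosome 7, 45461695 to 45466903) encodes a protein that forms pores in the outer mitochondrial membrane. It was at 24.6, 27.0 and 25.7 FPKM in TonEBP+/- libraries and at 24.6, 25.0 and 21.5 FPKM in wild type. Wild type 3 was low and the other libraries of both genotypes overlapped (difference 0.12, SE 0.0797, 95% interval -0.06 to 0.30, limma adjusted p = 1.00; exact permutation p = 0.3), and without wild type 3 the difference was 0.0504. Phlda3 (chromosome 1, 135766085 to 135769134), whose product competes with AKT for membrane lipids, had the most negative difference. It was at 9.36, 11.1 and 12.7 FPKM in TonEBP+/- libraries and at 14.0, 11.1 and 11.5 FPKM in wild type. TonEBP+/- 1 was lowest and wild type 1 highest (difference -0.14, SE 0.119, 95% interval -0.40 to 0.13, limma adjusted p = 1.00; exact permutation p = 0.4). Its sign held in every alternative run, and the difference ran from -0.235 to -0.0321 with a library left out. It was -0.316 with the thalamus covariate and -0.345 with TonEBP+/- 2 and 3 left out.

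The remaining pair act on growth signalling and RNA. Sesn1 (chromosome 10, 41810574 to 41908436) encodes a sestrin, an inhibitor of mTORC1 signalling. Its level was 23.0, 25.6 and 23.2 FPKM in TonEBP+/- libraries and 20.2, 24.2 and 20.8 FPKM in wild type. Every TonEBP+/- library was above the wild-type mean, and wild type 2 lay inside their range. Its unadjusted limma p of 0.151 was the smallest of the 10 (difference 0.13, SE 0.0858, 95% interval -0.06 to 0.33, limma adjusted p = 1.00; exact permutation p = 0.3). Zmat3 (chromosome 3, 32334792 to 32365665) encodes a zinc finger protein that binds RNA. It was at 14.0, 13.3 and 12.0 FPKM in TonEBP+/- libraries and at 15.1, 12.5 and 12.9 FPKM in wild type, with TonEBP+/- 3 lowest and wild type 1 highest. The difference was -0.03 (SE 0.0928, 95% interval -0.24 to 0.17, limma adjusted p = 1.00; exact permutation p = 0.7), and its sign turned without TonEBP+/- 3 (0.02) or wild type 1 (0.04).

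The intervals bound the changes that these libraries leave possible. With all 6 libraries the interval held 0 in all 10 genes. Both a doubling and a halving of the wild-type mean lay outside it in all 10. The widest was that of Gadd45a, whose ends correspond to ratios of 0.725 and 1.92. Without wild type 1 the difference of Gadd45a was 0.47 (SE 0.161), so its upper bound depends on that library. The size of a doubling, 0.79, was taken from the wild-type mean over all 3 libraries. Whether a doubling lies outside the interval without wild type 1 was not computed. For Cdkn1a the ends correspond to 0.839 and 1.55, and a doubling would be 0.77 on the log2 scale. Among the better covered genes, the ends were 0.938 and 1.21 for Mdm2 and 0.879 and 1.10 for Ccng1. Changes within these ends are left possible with 3 libraries per genotype. The ends are not limits of detection. Btg2, described below, had a log2 difference of -0.59 and did not pass the threshold (limma adjusted p = 0.945).

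**Figure D2:**
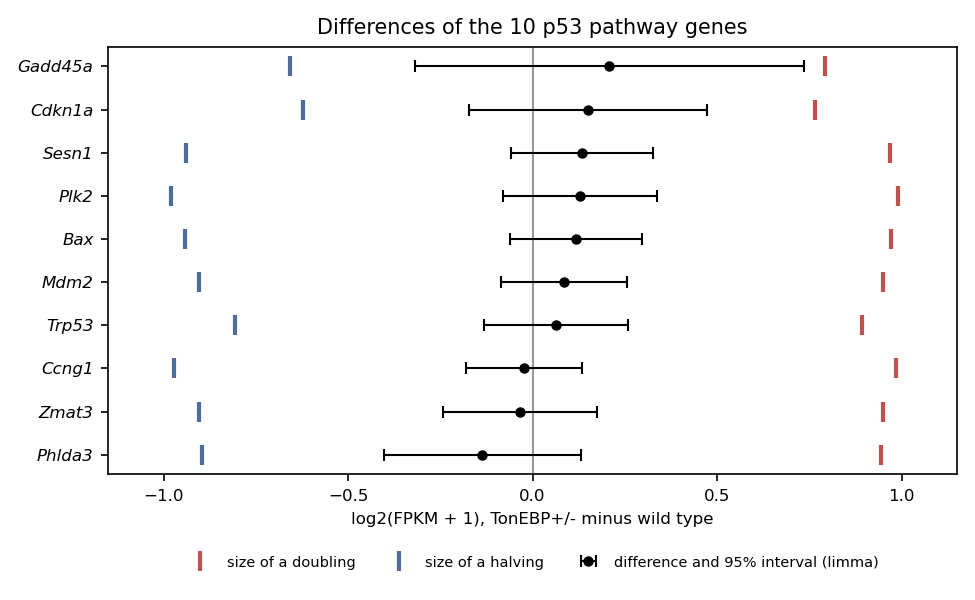
Difference of each gene between 3 TonEBP+/- and 3 wild-type libraries on the log2(FPKM + 1) scale (points) with the 95% interval from limma (bars); coloured ticks mark the size of a doubling (red) and a halving (blue) of the wild-type mean of that gene. All 10 intervals hold 0 and end short of both ticks.

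By library, the 10 genes did not follow genotype uniformly. In TonEBP+/- 3, which also had the most fragments, 9 of 10 genes were above their own mean over the 6 libraries, where 53.6% of all genes tested were above theirs. The exception was Zmat3, which was lowest there. TonEBP+/- 1 and 2 had 4 and 6 genes above the mean, and wild type 1 to 3 had 3, 3 and 2. The median deviation of the 10 genes on the log2 scale was -0.01, 0.01 and 0.13 in TonEBP+/- 1 to 3 and -0.04, -0.03 and -0.05 in wild type 1 to 3. Without TonEBP+/- 3 the median log2 difference over the 10 genes was 0.05, with 8 of 10 above 0. Without wild type 3 it was 0.06, with 7 of 10 above 0, and with the thalamus covariate 0.02.

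**Figure D3:**
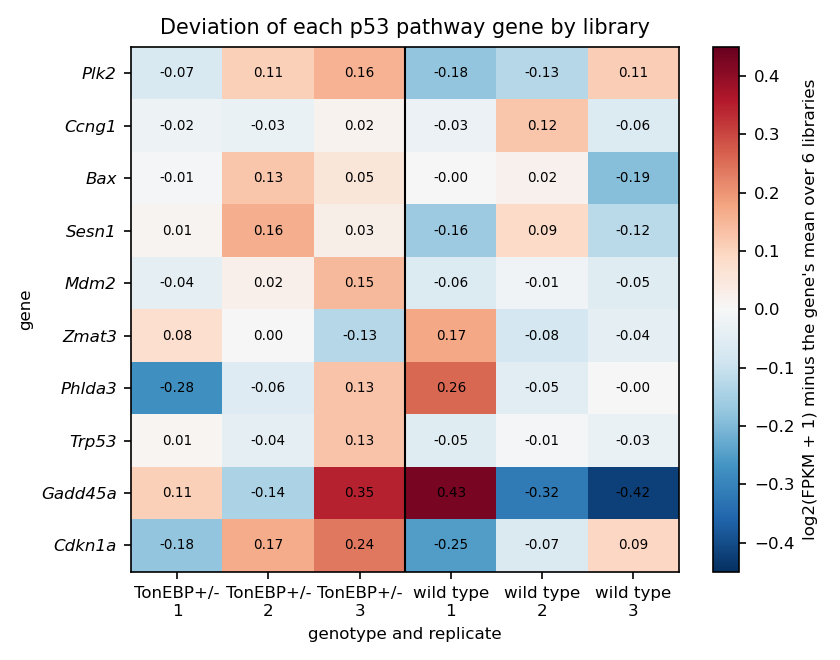
Deviation of each of the 10 genes (rows, ordered by level) from its own mean over 6 libraries on the log2(FPKM + 1) scale, with TonEBP+/- libraries left of the vertical line and wild-type libraries right of it. TonEBP+/- 3 is above the mean in 9 of 10 rows, and Gadd45a has the widest range, from -0.42 in wild type 3 to 0.43 in wild type 1.

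Cdkn1a was set against each of the other 9 genes across the 6 libraries. Plk2 followed it most closely, with Pearson's r = 0.939 (exact permutation p = 0.0222) and Spearman's rho = 0.886 (exact permutation p = 0.0333). Adjusted over the 9 pairs by the Benjamini-Hochberg method, neither passed (exact permutation, adjusted p = 0.175 and 0.263). Without TonEBP+/- 3 and wild type 1, the libraries farthest from the median of Cdkn1a, r was 0.857 for Plk2. For Zmat3 the relation was inverse (r = -0.798, exact permutation p = 0.0583; rho = -0.771, exact permutation p = 0.103), and r moved to -0.374 without these libraries. For Mdm2, r was 0.741 (exact permutation p = 0.0556; rho = 0.829, exact permutation p = 0.0583) and 0.457 without them. With 4 libraries left r was unstable: it also moved to -0.999 for Trp53 and to 0.781 for Phlda3 (r = 0.503 and 0.049 over 6 libraries), so the values over 4 libraries do not show what a relation rested on. The other 6 pairs had r between -0.254 (Gadd45a) and 0.503 (Trp53), with exact permutation p of 0.335 or more. The 6 libraries mix both genotypes, and wild type and TonEBP+/- values of Cdkn1a overlapped.

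Across all genes tested, the profiles most like that of Cdkn1a, by the root mean square difference of centred log2 values over the 6 libraries, were those of Fam43a (0.0441), Phf5a (0.0489), 1500017E21Rik (0.0505), Pinx1 (0.0518) and Ccar1 (0.0551). Plk2 ranked at 19 of 13121 genes (0.0721), Mdm2 at 852 (0.135) and Gadd45a at 12720 (0.404). The ranking over 6 libraries is a description only.

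The wider pathway was read from lists of other p53 genes and of related genes. Some genes belong to more than 1 list, so the counts per list are not independent. In none of the 9 lists did a gene pass an adjusted p of 0.05 in limma (0% of all genes tested). An unadjusted limma p under 0.05 was found in 0 to 4 genes per list, against 3.69% of all genes tested. The highest counts were 4 of 24 activity-induced genes and 3 of 10 cyclin, kinase and proliferation genes. Each list is described by its counts. Cell cycle and repair targets of p53 were split, with 10 of 21 genes tested higher in TonEBP+/- and 11 lower (median log2 difference -0.01). Of these, 1 gene had an unadjusted p under 0.05, Btg2, an antiproliferative target that neurons also induce with activity. Btg2 was at 5.67, 6.17 and 7.80 FPKM in TonEBP+/- libraries and at 10.9, 9.30 and 10.7 FPKM in wild type, and the genotypes did not overlap (log2 difference -0.59, SE 0.115, limma adjusted p = 0.945). Rrm2b, a ribonucleotide reductase gene named after its value was seen, also lay lower without overlap (-0.08). The genotypes lay apart in 2 of the 21 genes, Btg2 and Rrm2b, where they did in 8.52% of all genes tested. Rprm, a G2 arrest gene, was at 14.2 ± 3.55 FPKM in TonEBP+/- and 11.1 ± 1.87 FPKM in wild type (SD, n = 3 each), with overlap. Apoptotic targets had 13 of 16 genes above 0 and a median of 0.10, with overlap in all 16. The median was 0.0295 without TonEBP+/- 2 and 0.0307 with the thalamus covariate. The members with the smallest p were Siva1 (0.17, SE 0.104) and Trp53i13 (-0.19, SE 0.148), each with a limma adjusted p of 1.00.

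Upstream of p53, regulators and damage kinases had 16 of 29 genes above 0, with a median of 0.01. Daxx, which encodes a chaperone of histone H3.3 that also binds MDM2, was at 7.40 ± 0.513 FPKM in TonEBP+/- and 6.55 ± 0.214 FPKM in wild type (SD, n = 3 each). It was the 1 gene of this list in which the genotypes lay apart (log2 difference 0.15, SE 0.0852, limma adjusted p = 1.00), where 8.52% of all genes tested did. Setd8, a histone H4 methyltransferase gene that also modifies p53, had a difference of 0.13 (SE 0.0832, limma adjusted p = 1.00). Paralogs of the 10 genes had 11 of 18 above 0 and a median of 0.05, which was -0.0284 without wild type 3 and -0.0056 without TonEBP+/- 3. Zmat4, a relative of Zmat3, was at 17.9, 17.1 and 13.5 FPKM in TonEBP+/- libraries and at 20.6, 20.0 and 22.6 FPKM in wild type, without overlap (log2 difference -0.37, SE 0.104, limma adjusted p = 1.00). It was the 1 gene of the 18 paralogs in which the genotypes lay apart, against 8.52% of all genes tested. Plk3, a relative of Plk2, had a difference of 0.23 (SE 0.137, limma adjusted p = 1.00) with overlap.

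Senescence markers and inhibitors were evenly split, with 10 of 20 genes above 0 and a median of -0.01. All TonEBP+/- libraries were above all wild-type libraries in 4 of the 20, whereas 4.13% of all genes tested showed this. They were Id1, a gene for an inhibitor of helix-loop-helix factors that opposes senescence (20.4 ± 2.78 FPKM in TonEBP+/- against 15.4 ± 1.96 FPKM in wild type; SD, n = 3 each; log2 difference 0.38, SE 0.116, limma adjusted p = 1.00), Gpnmb (0.27), a surface glycoprotein gene of macrophages, and Cdkn2c (0.26) and Glb1 (0.16), which were named after their values were seen. Cdkn2a, whose products p16 and ARF mark senescence, was at 0.172, 0.141 and 0.303 FPKM in TonEBP+/- libraries, and in wild type it was listed at about 0 in library 1 and at 0.633 and 0.647 FPKM in libraries 2 and 3. Cdkn2b was at most 0.473 FPKM in TonEBP+/- and 0.617 FPKM in wild type. Both were below the filter, at a level worth few fragments, and were not tested.

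Genes of the senescence-associated secretory phenotype were sparse, with 15 of 34 above the filter. Of the 15, 12 were above 0 (median 0.14, against 0.0844 without wild type 3, 0.0709 with the thalamus covariate and 0.0634 with TonEBP+/- 2 and 3 left out), and in 5 all TonEBP+/- libraries were above all wild-type libraries, against 4.13% of all genes tested. Igfbp7, a binding protein for insulin-like growth factors made by vessels, was at 15.7, 16.1 and 19.2 FPKM in TonEBP+/- libraries and at 13.3, 11.9 and 15.0 FPKM in wild type (log2 difference 0.32, SE 0.104, limma adjusted p = 1.00). Plat, the gene of tissue plasminogen activator, had a difference of 0.29 (SE 0.103, limma adjusted p = 1.00). The other 3 were Igfbp5 (0.14), Vegfa (0.15) and Csf1 (0.16), named after their values were seen. Meningeal and fibroblast markers summed to 57.7, 95.4 and 90.6 FPKM in TonEBP+/- 1 to 3 and to 55.1 to 74.3 FPKM in wild type, and mural cell markers to 64.1 to 92.6 FPKM in TonEBP+/- and 63.5 to 83.3 FPKM in wild type; their part in these values was not tested. The cytokine gene Il6 was at 0.126 FPKM or less in TonEBP+/- and 0.104 FPKM or less in wild type, and Gdf15, a secreted p53 target, at 0.253 FPKM or less in TonEBP+/- and 0.116 FPKM or less in wild type.

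Lists of genes that act with Bax and p21 were split in sign. The first list mixes genes that promote and genes that restrain cell death, so its counts give no direction for apoptosis. The BCL2 family and caspase cascade had 13 of 25 genes above 0 and a median of 0.02, which was -0.05 among genes passing a stricter filter. The genotypes lay apart in 4 of the 25 genes, where they did in 8.52% of all genes tested. Among these, Bcl2 (0.14) and Hrk (0.12), named after their values were seen, were above wild type. Diablo (-0.15, SE 0.0773), which encodes a mitochondrial activator of caspases, was below it (limma adjusted p = 1.00 for Bcl2, Hrk and Diablo). Cyclins, their kinases and proliferation genes had 5 of 10 above 0 and a median of -0.01. Ccnd2, the gene of cyclin D2, was at 15.8 ± 1.53 FPKM in TonEBP+/- and 13.3 ± 0.272 FPKM in wild type (difference 0.23, SE 0.0839), while Ccna2, the gene of cyclin A2, was at 1.37 ± 0.0736 FPKM in TonEBP+/- and 1.89 ± 0.174 FPKM in wild type (difference -0.29, SE 0.115; SD, n = 3 each, limma adjusted p = 1.00 for both). The genotypes lay apart in 3 of the 10 genes, these and Ccne2 (-0.29), where they did in 8.52% of all genes tested. Ccne2 was named after its value was seen.

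Because Plk2 and Btg2 are also induced by neuronal activity, activity-induced genes were read beside them. Of 24 tested, 11 were above 0 and 13 below (median -0.04), and the genotypes lay apart in 6, against 8.52% of all genes tested. In 5 of the 6 all TonEBP+/- libraries were below all wild-type libraries, against 4.39% of all genes tested. Btg2 belongs to this list and is 1 of the 5. Dusp1, a phosphatase gene, was at 9.31, 13.3 and 16.4 FPKM in TonEBP+/- libraries and at 19.6, 21.5 and 19.2 FPKM in wild type (difference -0.62, SE 0.172, limma adjusted p = 1.00). The difference of Plk2 (0.13) was of the other sign. The median of this list was -0.14 with the thalamus covariate, and its sign turned without TonEBP+/- 1 (0.0483), without wild type 3 (0.0353) and with the stricter filter (0.0220).

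**Figure D4:**
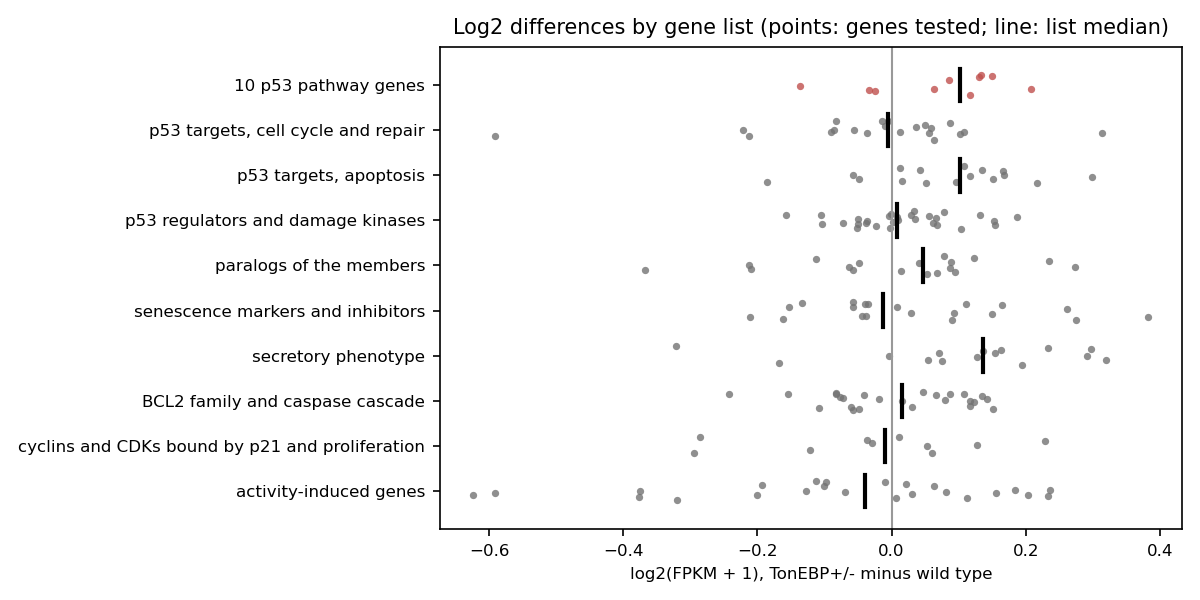
Log2 differences (TonEBP+/- minus wild type, log2(FPKM + 1) scale) of single genes tested (points, spread vertically for legibility) in the 10 p53 pathway genes (red) and 9 lists of related genes (grey), with list medians as black lines. Medians lie between -0.04 (activity-induced genes) and 0.14 (secretory phenotype), and the lowest points are Dusp1 (-0.62) and Btg2 (-0.59).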

How the data were processed

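Total RNA was made into directional libraries, and TopHat aligned the reads to mm10, per the labels' protocols and the submitters' processing notes. Not given in the sources used here are its version, the annotation and the abundance program. The authors deposited log2 values, 1 table per library, with no unit named. They were read as log2(FPKM + 1) from the values: steps between low values scaled with transcript length, and 65.8% to 69.4% of single-transcript genes under 3.5 steps lay within 0.15 of a whole step. Depths and fragments per gene (from the longest GENCODE transcript) are estimates from these steps. If the unit is wrong, FPKM levels and ratios change and log2 differences do not.

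The 13122 genes that reached 1 FPKM in 3 or more libraries entered a limma model (limma 3.58.1, R 4.3.3) with genotype as its term and a robust, trended eBayes step; p-values were adjusted by the Benjamini-Hochberg method over all of them. The procedure was tested on simulated data. Exact permutation tests used scipy 1.17.1 in Python 3.11.15. The genes and lists were chosen with earlier results of these data known. Named were the 10 genes, the 2 with the smallest p per list, 4 low genes (Cdkn2a, Cdkn2b, Il6, Gdf15), and the 5 profiles closest to Cdkn1a. A gene that this rule selects is not reported here. No 2 libraries shared a value above 0 in any gene. Alternatives were 2 scalings, 2 filters, a pseudocount of 0.1, no robust option, a threshold of 0.1, a replicate block, a thalamus covariate, and each library left out. A choroid plexus covariate and leaving out TonEBP+/- 2 and 3 together were added after seeing the data.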

Additional observations from a re-analysis of the deposited data

How the results depend on the processing

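In all 16 alternative fits 0 of the 10 genes passed, with a smallest adjusted p of 0.888 in limma (a threshold of 0.1 also gave 0), and 6 of the 10 kept their sign throughout. Over all genes the count past the threshold was 0 to 8 with a library left out (8 without TonEBP+/- 1, and 1 without TonEBP+/- 3, wild type 1 or wild type 2), and 1 with TonEBP+/- 2 and 3 left out, where the lone TonEBP+/- library is assumed to vary like wild type. The median log2 difference over the 10 genes, 0.10 with all libraries, was 0.0515 to 0.138 with a library left out, 0.0243 with the thalamus covariate and 0.0212 with TonEBP+/- 2 and 3 left out.

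Signs turned as follows; the cause was not tested. With the thalamus covariate the difference was -0.0592 for Cdkn1a, 0.0498 for Zmat3 and -0.0016 for Rprm. With TonEBP+/- 2 and 3 left out it was -0.10 for Cdkn1a, -0.0044 for Plk2, 0.0600 for Zmat3 and -0.0554 for Rprm. With a library left out it ran from -0.0615 to 0.0317 for Ccng1 and from -0.0832 to 0.0434 for Zmat3. The replicate block gave the same median of 0.10 and 0 genes past the threshold. Libraries of the same number did not deviate together (correlations of -0.208, -0.247 and -0.157), and 0 of 3 TonEBP+/- libraries correlated best with its own number. Cdkn1a and Gadd45a did not pass the stricter filter, and alternatives for counts were not run, since the files hold log2 values. Among the p53 pathway genes named at the outset, Cdkn1a and Gadd45a had the fewest estimated fragments and the largest counting error. For Gadd45a that error was 12.8% to 21.2%. Its SD between libraries was 22.2% of the mean in TonEBP+/- and 46.7% in wild type, and the cause of this spread was not tested.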
